A study of Mus musculus with 4 samples.

Results

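Expression of 5 S100 genes (S100a4, S100a6, S100a10, S100a11 and S100a13) and 2 galectin genes (Lgals1 and Lgals3) was followed in T cells from mouse melanomas. The 7 genes were taken by symbol from the 32285 genes of each count matrix, and all 7 were found and passed the filter on low counts over all T cells. The cells were CD8-positive T cells sorted as live, CD45-, CD3- and CD8-positive cells from tumours of B16F10, a transplantable melanoma line, grown in C57BL/6J mice 6 to 8 weeks of age. The labels give 2 samples with a scrambled guide RNA (sgScr) and 2 with a guide RNA against Arid1a (sgArid1a), whose product belongs to SWI/SNF, a complex that moves nucleosomes. Neither the cells that received the guide nor separate animals for the 2 samples of a group are named there, so a p-value reflects sample spread alone, possibly of technical origin.

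S100 proteins are small proteins with paired EF-hand motifs. Most of them change shape when they bind calcium and then attach to partners such as annexins and non-muscle myosin. Galectins are lectins that bind beta-galactoside sugars on glycoproteins, inside cells and, after secretion by a route that bypasses the secretory pathway, at the cell surface. In CD8 T cells several of these genes, S100a4, S100a6, Lgals1 and Lgals3 among them, are known as genes that are low in naive cells and high in effector and memory cells. S100A8 and S100A9, the best known members of the S100 family, belong to neutrophils and monocytes and are not among the 7.

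The matrices held 7376 to 13085 barcodes, and 7157 to 12771 T cells per sample were kept, with 32201336 to 81447081 UMIs (unique molecular identifiers, each counted as 1 captured RNA molecule). The median UMI count per T cell was 3750 and 3597 in sgScr and 2407 and 4025 in sgArid1a. Each pair of libraries shared 78 to 231 cell barcodes. Arid1a itself stood at 85.2 and 93.6 CPM (UMI counts scaled by the sample's total) in sgScr and at 74.1 and 72.6 CPM in sgArid1a, a log2 difference of -0.26 ± 0.06 (SE; edgeR adjusted p = 0.00425). That call was lost without sgScr replicate 2 (adjusted p = 0.0954) and with cells thinned to 1500 UMIs (adjusted p = 0.0543). T cell markers summed to 4891 CPM or more in every sample.

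The 5 S100 genes lie on chromosome 3 of GRCm38, all on the plus strand, in a pair of neighbourhoods. S100a13 (chr3:90514435-90524581), S100a4 (chr3:90603771-90606045) and S100a6 (chr3:90612882-90624181) form the first, with 6.84 kb between S100a4 and S100a6. S100a11 (chr3:93520488-93526287) and S100a10 (chr3:93555080-93564643) form the second, 2896 kb further on and 28.8 kb apart. Lgals1 (chr15:78926725-78930465) and Lgals3 (chr14:47367751-47386160) stand alone on their chromosomes. The annotated gene Gm42674 overlaps S100a4 on the same strand and has no row in the matrices, so reads shared with it cannot be told apart.

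Promoter windows were found for 5 of the 7 genes in the RefSeq table (GRCm38.p6). The windows of S100a4, its nearest neighbour S100a6 and S100a11 are shown, since these 3 genes rose over all T cells and come from both neighbourhoods. Each line gives the 250 bases before the start in that table, 5′ to 3′ on the plus strand, with motif matches in capitals. The windows are chr3:90603520-90603769, chr3:90612644-90612893 and chr3:93520246-93520495. The last 12 bases of the S100a6 window and the last 8 of the S100a11 window lie inside the genes as positioned above, whose annotation (GENCODE) starts earlier.
S100a4: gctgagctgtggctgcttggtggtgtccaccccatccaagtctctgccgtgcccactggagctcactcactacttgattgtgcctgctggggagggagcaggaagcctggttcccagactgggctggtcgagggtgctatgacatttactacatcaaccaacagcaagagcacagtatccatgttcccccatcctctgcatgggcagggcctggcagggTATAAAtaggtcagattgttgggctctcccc
S100a6: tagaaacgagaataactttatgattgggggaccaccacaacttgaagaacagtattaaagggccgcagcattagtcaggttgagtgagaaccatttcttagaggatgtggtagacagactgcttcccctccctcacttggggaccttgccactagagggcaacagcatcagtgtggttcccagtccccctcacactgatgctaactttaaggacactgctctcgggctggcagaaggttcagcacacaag
S100a11: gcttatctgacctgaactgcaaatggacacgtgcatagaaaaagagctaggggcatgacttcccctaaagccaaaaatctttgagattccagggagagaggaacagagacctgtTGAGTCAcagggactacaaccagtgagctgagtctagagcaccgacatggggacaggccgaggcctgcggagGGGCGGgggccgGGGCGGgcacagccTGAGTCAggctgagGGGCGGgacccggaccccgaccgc
Both strands were searched for 3 motifs. The TATA box was spelled TATAAA. The GC box, known as the site of Sp1, was spelled GGGCGG. The AP-1 site was spelled TGANTCA. S100a4 has a TATA box that begins 31 bases before the start. S100a11 has 3 GC boxes, beginning 64, 52 and 24 bases before the start, and 2 AP-1 sites, beginning 136 and 38 bases before it. S100a6 has none of these letters in the window. Of all 32851 promoter windows of 300 bases, 13.6% hold the TATA box, 35.7% the GC box and 7.81% the AP-1 site. A match describes the letters and is not evidence of binding.

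All 7 genes were higher in sgArid1a than in sgScr T cells when UMIs were summed over all T cells of a sample. The rises ran from 1.31-fold (S100a13) to 2.34-fold (Lgals1). Of the 12792 genes tested with edgeR, 28.0% were called higher and 26.4% lower at an adjusted p under 0.05, so a call as such is common in this comparison. Fewer cells that express a gene and less RNA per cell cannot be told apart in such sums.

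Among the S100 genes, S100a4, which binds non-muscle myosin and is linked to cell motility, stood at 277 and 291 CPM in sgScr and at 524 and 466 CPM in sgArid1a. Both sgArid1a samples lay above both sgScr samples, as they did for 35.0% of all genes tested, and the log2 fold was 0.83 ± 0.08 (SE; edgeR adjusted p = 1.6e-06). S100a6 (calcyclin) stood at 503 and 501 CPM in sgScr and at 884 and 906 CPM in sgArid1a. Replicates of this gene differed by far less than the groups, and its log2 fold was 0.86 ± 0.07 (edgeR adjusted p = 3.27e-07).

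S100a10, the partner of annexin A2 in a complex at the plasma membrane, stood at 784 and 777 CPM in sgScr and at 1158 and 1081 CPM in sgArid1a. S100a11, which binds annexin A1, stood at 489 and 463 CPM in sgScr and at 814 and 751 CPM in sgArid1a. The groups did not overlap for either gene, with log2 folds of 0.55 ± 0.08 for S100a10 (edgeR adjusted p = 4.39e-05) and 0.75 ± 0.08 for S100a11 (edgeR adjusted p = 3.98e-06). S100a13, known for its part in the release of proteins without a signal peptide, moved least. It stood at 174 and 173 CPM in sgScr and at 233 and 213 CPM in sgArid1a, a log2 fold of 0.39 ± 0.07 (edgeR adjusted p = 0.00045).

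The galectins had the largest folds of the 7. Lgals1, the gene of galectin-1, stood at 1031 and 1030 CPM in sgScr and at 2387 and 2329 CPM in sgArid1a. The sgScr samples were nearly equal and both sgArid1a samples lay far above them, with a log2 fold of 1.22 ± 0.08 (edgeR adjusted p = 5.33e-08). Lgals3, the gene of galectin-3, stood at 66.6 and 73.3 CPM in sgScr and at 128 and 137 CPM in sgArid1a. Its groups did not overlap either, and its log2 fold was 0.96 ± 0.06 (edgeR adjusted p = 7.02e-08).

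**Figure D1:**
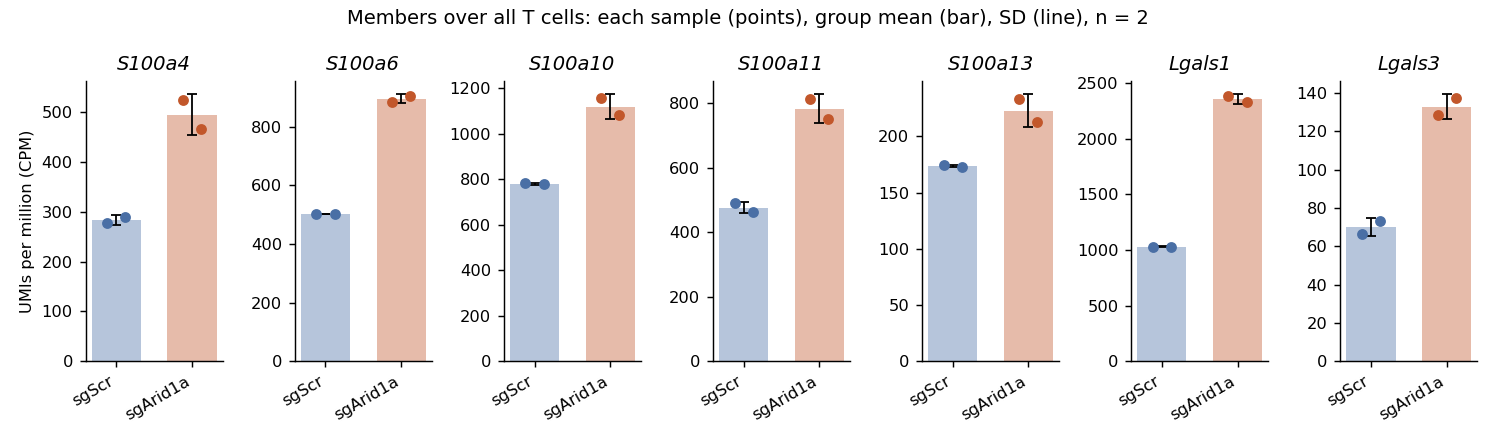
Level (CPM, y axis from 0, own scale for each gene) of the 7 genes in each sample, summed over all T cells; points are samples, bars are group means and lines are SD with n = 2. In every panel both sgArid1a samples lie above both sgScr samples, from S100a13 (174 and 173 against 233 and 213 CPM) to Lgals1 (1031 and 1030 against 2387 and 2329 CPM).

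The rises stayed in each of 17 other ways of filtering cells, scaling counts or testing (119 of 119 values higher and called), with log2 folds from 0.29 to 1.36. Without cells whose receptor used Trbv13-1 or Trbv20, described at the end, the log2 fold of Lgals1 was 0.84 and that of S100a4 0.50, against 0.71 for Lgals3, 0.70 for S100a6, 0.50 for S100a11, 0.42 for S100a10 and 0.33 for S100a13, with all 7 still called.

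Genes related by family or function moved unevenly. Of 12 other genes with S100 names 3 passed the filter on low counts, and S100a1 rose from 2.58 and 2.42 CPM to 4.81 and 5.10 CPM (log2 fold 1.01 ± 0.13, edgeR adjusted p = 3.23e-05), while the other two were not called. S100a8 and S100a9 had no UMI in any T cell sum. Of 6 other galectin genes tested, 2 rose and 2 fell, against 28.0% of all genes called higher and 26.4% called lower. Lgalsl, a galectin-related gene, rose from 9.31 and 10.6 CPM to 14.9 and 13.6 CPM, and its call was lost without Trbv13-1 and Trbv20 cells (edgeR adjusted p = 0.224). Lgals7 also rose, from 0.673 and 0.186 CPM to 1.04 and 0.872 CPM, and lost its call in 7 of 17 alternatives, among them without sgScr replicate 2 (edgeR adjusted p = 0.339). Lgals8 fell from 17.5 and 19.5 CPM to 15.3 and 14.8 CPM, a call lost in 5 alternatives, among them without sgScr replicate 2 (edgeR adjusted p = 0.133). Grifin fell as well, from 0.814 and 0.994 CPM to 0.102 and 0.405 CPM. Lgals9, a ligand of Tim-3 with a tandem of sugar-binding domains, stood at 116 and 121 CPM in sgScr and 122 and 131 CPM in sgArid1a and did not pass (edgeR adjusted p = 0.0852). It was called higher in 5 of 17 alternatives. Among them were cells thinned to 1500 UMIs (log2 fold 0.33, edgeR adjusted p = 0.00179) and the set without cycling-like cells (log2 fold 0.26, edgeR adjusted p = 0.00355).

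Annexins and Ahnak, membrane-associated partners of S100 proteins, had 5 of 9 tested members higher and none lower, against 28.0% and 26.4% of all genes. Their median log2 fold was 0.19, against -0.02 over all genes. Anxa2, which binds S100A10, rose from 309 and 309 CPM to 598 and 640 CPM (log2 fold 1.03 ± 0.06, edgeR adjusted p = 5.5e-08). Anxa5 (log2 fold 0.34) and Anxa6 (log2 fold 0.19) rose less, and the call of Anxa6 was lost without either sgScr replicate (edgeR adjusted p = 0.211 and 0.218). A further list of 12 tested genes, 11 partners of S100 proteins and Lgals3bp, a partner of galectin-3, had 5 higher and 3 lower. Cacybp, the calcyclin-binding protein named for S100A6, rose from 96.3 and 95.0 CPM to 147 and 147 CPM, Stip1 from 61.7 and 60.1 CPM to 77.8 and 83.8 CPM, and Lgals3bp, a secreted glycoprotein, from 53.1 and 54.5 CPM to 66.5 and 72.1 CPM.

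Of 18 actin and intermediate filament genes of activated T cells, 14 rose and none fell with edgeR, against 28.0% and 26.4% of all genes. Their median log2 fold was 0.36. Capg, which caps actin filaments, rose from 81.7 and 86.9 CPM to 219 and 225 CPM (log2 fold 1.43). Actg1 (0.72) and Tpm4 (0.50) rose on the same log2 scale. Of 14 glycoproteins that galectins bind on T cells, 6 rose and 3 fell, and the 3 with the smallest p were inhibitory receptors. Lag3 rose from 67.2 and 65.7 CPM to 108 and 123 CPM, Havcr2 (Tim-3) from 31.3 and 32.3 CPM to 53.1 and 54.0 CPM, and Pdcd1 (PD-1) from 178 and 188 CPM to 283 and 313 CPM. Of 22 enzymes that build or cap the sugars galectins bind, 8 fell and 4 rose, with a median log2 fold of -0.08. The counts of every related list, these enzymes included, are to be read beside the 28.0% of all genes called higher and 26.4% called lower. St6gal1, whose alpha-2,6-linked sialic acid is known to block galectin-1 binding, fell from 27.7 and 30.8 CPM to 13.1 and 12.1 CPM (log2 fold -1.20 ± 0.08, edgeR adjusted p = 1.05e-07). C1galt1 (-0.37) and B4galt1 (-0.32), which add galactose, fell less, and both calls were lost with cells thinned to 1500 UMIs (edgeR adjusted p = 0.0626 and 0.0768).

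Markers of other cells that express S100 proteins and galectins were low. The 12 macrophage markers summed to 11.6 and 13.04 CPM in sgScr and 12.9 and 16.3 CPM in sgArid1a, led by Cd68. Of the 8 tested, 4 were called higher and none lower, where 28.0% of all genes were called higher. The 8 neutrophil markers summed to 22.1 and 18.7 CPM and to 20.8 and 24.4 CPM, led by Il1r2, with at least 4 of the 8 at 0 in every sample. Il1r2 and G0s2, another of the 8, were also leading genes of T cell clusters 11 and 3, described below. The neutrophil sum and the filter on marker UMIs therefore take in T cells too. The 9 melanoma markers summed to 3.01 CPM or less and were led by Mitf. The 7 fibroblast markers summed to 0.342 CPM or less and were led by Col1a1. The 10 dendritic cell and MHC class II markers moved with the groups, at 45.0 and 57.6 CPM in sgScr and 110 and 108 CPM in sgArid1a, led by Cd74, with 4 of 5 tested markers higher and 1 lower. Markers of endothelial cells (led by Pecam1), B cells (Cd79b), NK cells (Eomes), red cells (Hba-a1) and CD4 T cells (Zbtb7b) summed to 61.9 CPM or less in every sample. When every cell with a UMI of a macrophage, neutrophil, melanoma or fibroblast marker was left out, the 7 genes stayed called as higher. The part of MHC class II RNA in the rises was not tested.

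Levels were next described by T cell state. Cells were clustered without the 7 genes, the other S100 and galectin genes, the annexins and Ahnak. The other related lists above stayed eligible for the clustering. Clusters were named from marker lists, and Lag3, Havcr2 and Pdcd1 are among the exhaustion markers. Of the 13 clusters, 11 took a name ending in -like, and clusters 3 and 11 kept their number. Cluster 3 (leading genes G0s2, Tgtp1 and Ms4a4c) raised 5 of 9 naive markers, and cluster 11 (Kit, Tnfsf11) raised 6 of 8 progenitor exhausted markers at a median UMI count 0.366 times that of its own samples. A level here is CPM within a cluster, given as the mean ± SD over the 4 samples, as a description without a test.

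The exhausted-like cluster (cluster 8, with all 10 exhaustion markers raised) held the highest level of 6 of the 7 genes. Lgals1 stood there at 3378 and 3254 CPM in sgScr and 4651 and 4423 CPM in sgArid1a, against 76.5 ± 21.7 CPM in naive/central memory-like cluster 1, a 51.3-fold range. Cycling-like cluster 9 (3224 ± 519 CPM) came next for Lgals1. It lay below cluster 8 in all 4 samples, by less than the larger SD of the pair, which includes the group difference. Effector-like cluster 10 (2607 ± 492 CPM), early-activated-like cluster 7 (1692 ± 305 CPM) and memory-like cluster 2 (1145 ± 106 CPM) followed. Each of these lay below the one before by more than the larger SD of the pair.

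S100a4 had a wide range. It stood at 1055 and 1122 CPM in sgScr and 1232 and 1071 CPM in sgArid1a in the exhausted-like cluster, and at 0.847 and 2.02 CPM in sgScr and 7.68 and 2.42 CPM in sgArid1a in cluster 1, a 346-fold range whose lower end rests on 5, 10, 14 and 10 UMIs. Its next clusters were the cycling-like (571 ± 58.4 CPM), the memory-like (468 ± 44.6 CPM) and the effector-like (415 ± 73.6 CPM). The effector-like lay below the memory-like in all 4 samples, by less than the larger SD of the pair. Between early-activated-like cluster 7 (304 ± 50.8 CPM) and cluster 11 (41.9 ± 18.3 CPM) S100a4 differed beyond the larger SD.

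S100a6 differed from S100a4 in its order. Memory-like cluster 2 (1347 ± 50.8 CPM) and effector-like cluster 10 (1295 ± 86.2 CPM) stood beside exhausted-like cluster 8 (1584 ± 361 CPM), with no difference beyond the SD among these neighbours, and the interferon-stimulated-like (940 ± 134 CPM) and cycling-like (774 ± 72.0 CPM) clusters followed, each lower by more than the larger SD. The large SD in cluster 8 followed the groups, with 1302 and 1243 CPM in sgScr and 1886 and 1905 CPM in sgArid1a. Lgals3 was likewise high in the exhausted-like (283 ± 37.5 CPM), effector-like (246 ± 27.5 CPM) and memory-like (167 ± 12.5 CPM) clusters and lower in the cycling-like one (96.5 ± 26.0 CPM). Its lowest level, 1.31 ± 1.80 CPM in naive/central memory-like cluster 5, rested on 7 UMIs, all in sgArid1a.

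S100a10, S100a11 and S100a13 were present in every state. S100a10 ran from 234 ± 91.9 CPM in cluster 11 to 1656 ± 123 CPM in cluster 8, a 7.08-fold range, and stood at 320 to 530 CPM in the 3 naive/central memory-like clusters. S100a11 ran from 134 ± 71.3 CPM in cluster 11 to 1388 ± 158 CPM in cluster 8, with the cycling-like (901 ± 96.2 CPM) and early-activated-like (690 ± 107 CPM) clusters next, each lower by more than the larger SD. S100a13 was the exception among the 7, highest in the effector-like cluster (386 ± 62.4 CPM) and then in the exhausted-like one (322 ± 12.1 CPM), with its lowest level in cluster 11 (41.1 ± 11.7 CPM).

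**Figure D2:**
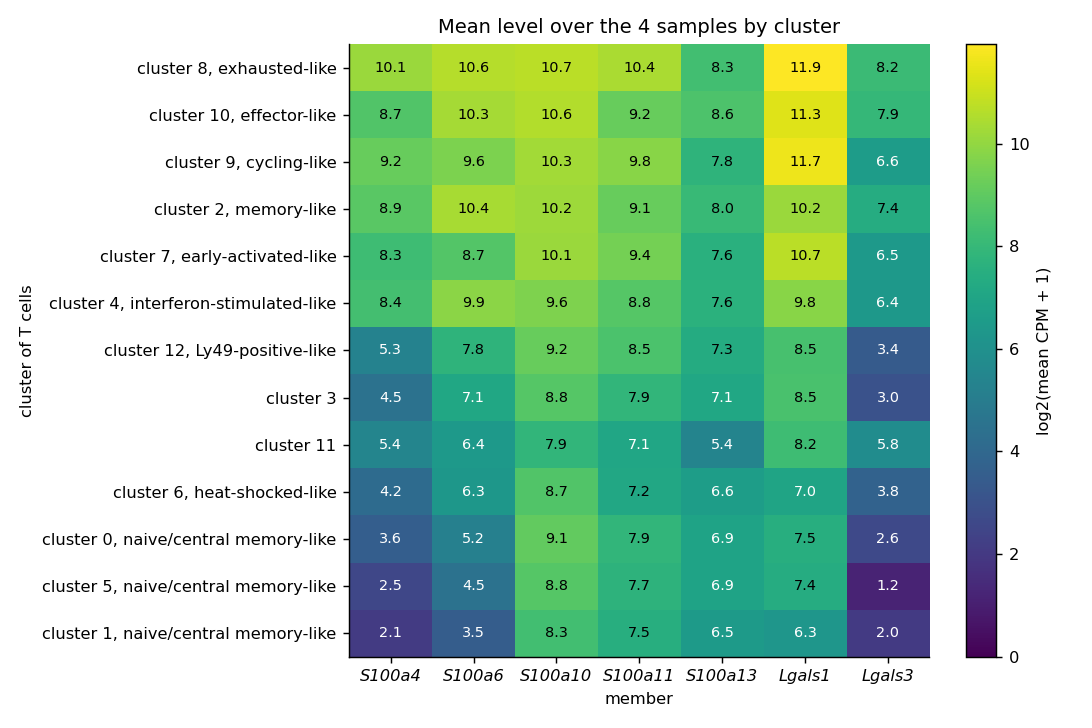
Mean level over the 4 samples of each gene (columns) in each cluster of T cells (rows), as log2(mean CPM + 1) in colour and digits. The exhausted-like cluster holds the highest level of 6 genes and S100a13 peaks in the effector-like cluster, while S100a4 (3.24 CPM in cluster 1) and Lgals3 (1.31 CPM in cluster 5) are lowest in naive/central memory-like clusters and S100a10, S100a11 and S100a13 are lowest in cluster 11.

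Across 48 sums (12 clusters by 4 samples), the pattern of S100a4 on the log2(CPM + 1) scale was most like those of S100a6 (Pearson r = 0.96), Lgals1 (0.95) and Lgals3 (0.95) among the 5457 genes ranked. S100a10 and S100a11 were alike (r = 0.95). S100a4 and S100a6 reached 0.81 to 0.84 with S100a10 and S100a11. These likenesses did not follow position throughout: S100a13, which lies nearer to S100a4 and S100a6, had r of 0.70 and 0.75 with them and of 0.93 and 0.86 with the more distant S100a10 and S100a11. Pairs among the 7 genes ran down to 0.65 for S100a13 with Lgals3. These sums share libraries, depth and cluster borders, so r is a description. The other most alike genes were Prr13 and Nkg7 for S100a6, Ppp1ca and Myl6 for S100a10, Ndufb7 and Sub1 for S100a11, Myl6, Tmsb4x and Sh3bgrl3 for S100a13, Arpc4 and Cyba for Lgals1, and Gzmb and Cish for Lgals3, at r of 0.92 to 0.96.

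The share of T cells with at least 1 UMI of a gene, with each cell thinned to 1500 UMIs, was higher in sgArid1a for all 7 genes. For Lgals1 it was 33.2 and 34.6% of cells in sgScr and 57.4 and 54.7% in sgArid1a, for S100a6 22.1 and 22.7% against 40.3 and 39.5%, and for S100a4 13.8 and 14.5% against 28.0 and 24.9%. It was 53.8 and 54.7% against 66.7 and 63.7% for S100a10, and 5.92 and 6.20% against 11.3 and 11.8% for Lgals3. No groups overlapped. In CPM both sgArid1a samples lay above both sgScr samples for 35.0% of all genes, and for the share of cells this background was not computed. The exact two-sided permutation test cannot give less than 0.333 with 2 against 2 samples. Thinning left out 191 and 235 cells of the sgScr samples and 1767 and 331 of the sgArid1a samples. At the same depth naive/central memory-like cells had a UMI of S100a4 in 0.57 and 0.54% of cells in sgScr and 0.83 and 0.78% in sgArid1a, and of Lgals3 in 0.198 to 0.453%, the low reference for these genes. Without thinning, S100a4 was found in 20.1 and 20.7% against 33.1 and 36.1% of cells, and Lgals1 in 46.0 and 47.2% against 60.6 and 67.1%, while the groups overlapped for S100a10 and S100a11.

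Within cell classes most calls were of the galectins and S100a6. The median log2 fold over the classes was 0.43 for Lgals1, 0.37 for Lgals3, 0.29 for S100a6 and 0.14 for S100a4, each below the value over all T cells, while single classes ran higher, such as Lgals3 in early-activated-like cells (1.07) and S100a4 in Ly49-positive-like cells (0.95). Of 67 pairs of a gene and a class tested in 10 classes, 17 were called higher and none lower with edgeR (DESeq2 called 13 higher and none lower, and of the 11 negative pairs 2 had an unadjusted edgeR p under 0.05), and 56 had a positive log2 fold. Over all genes 3.26% of such pairs were called higher. Leaving out sgScr replicate 1 gave 10 calls and leaving out sgArid1a replicate 2 gave 32. The named classes are rebuilt from markers, and a class can hold different cells in each group.

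Lgals1 was called higher in 7 of 10 classes and had a positive log2 fold in all 10. In the exhausted-like class it stood at 3378 and 3254 CPM in sgScr and 4651 and 4423 CPM in sgArid1a (log2 fold 0.51 ± 0.08, edgeR adjusted p = 5.62e-05), where 8.05% of all genes were called higher. In the cycling-like class (2.96% of genes called higher) it stood at 2801 and 2774 CPM against 3811 and 3511 CPM (log2 fold 0.47 ± 0.09). The other called classes were the Ly49-positive-like (log2 fold 0.52; 2.13% of genes called higher), naive/central memory-like (0.46; 4.16%), cluster 3 (0.32; 2.67%), memory-like (0.30; 3.04%) and cluster 11 (1.16; 5.23%). The calls in memory-like cells (edgeR adjusted p = 0.323 and 0.475) and cluster 3 (edgeR adjusted p = 0.0638 and 0.498) were lost without sgScr replicate 1 or without sgScr replicate 2. The first was also lost at clustering resolution 0.5 (edgeR adjusted p = 0.0688) and the second with DESeq2 (adjusted p = 0.0545). Those in the Ly49-positive-like (edgeR adjusted p = 0.154) and naive/central memory-like classes (edgeR adjusted p = 0.0743) were lost without sgScr replicate 1, and that in cluster 11 without sgScr replicate 1 or sgArid1a replicate 1 (edgeR adjusted p = 0.331 and 0.126).

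Lgals3 was called higher in 4 of 9 classes. In the early-activated-like class it stood at 53.3 and 64.2 CPM in sgScr and at 113 and 120 CPM in sgArid1a (log2 fold 1.07 ± 0.14, edgeR adjusted p = 8.5e-05), where 1.72% of all genes were called higher. In the cycling-like class it stood at 74.7 and 73.4 CPM against 117 and 121 CPM (log2 fold 0.76 ± 0.09). Both calls held in every alternative run. The exhausted-like class (log2 fold 0.37, lost without sgScr replicate 1 at edgeR adjusted p = 0.1) and cluster 3 (1.04, at 4.63 and 4.65 against 9.32 and 9.43 CPM, lost without either sgScr replicate) were the others.

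S100a6 was called higher in 3 of 10 classes. In the exhausted-like class it stood at 1302 and 1243 CPM in sgScr and 1886 and 1905 CPM in sgArid1a (log2 fold 0.63 ± 0.08, edgeR adjusted p = 1.55e-06), and the call held in all 9 alternatives that kept this class. In naive/central memory-like cells it stood at 20.3 and 20.2 CPM against 30.7 and 28.2 CPM (log2 fold 0.60 ± 0.11). In cycling-like cells the log2 fold was 0.29 and the call was lost in 5 of 10 alternatives, without sgScr replicate 1 among them (edgeR adjusted p = 0.276). In memory-like cells S100a6 was already high in both groups, at 1404 and 1282 CPM against 1338 and 1363 CPM, and the groups overlapped (log2 fold 0.08 ± 0.08, edgeR adjusted p = 0.636).

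The other S100 genes were called in at most 1 class each. S100a11 was called in exhausted-like cells, at 1281 and 1245 CPM against 1589 and 1437 CPM (log2 fold 0.32 ± 0.08), and lost that call without either sgScr replicate (edgeR adjusted p = 0.0617 and 0.201). S100a10 was called in naive/central memory-like cells, at 390 and 384 CPM against 470 and 428 CPM (log2 fold 0.30 ± 0.08), and lost it likewise (edgeR adjusted p = 0.314 and 0.513). S100a4 was called in Ly49-positive-like cells, at 21.8 and 33.4 CPM against 41.0 and 57.4 CPM (log2 fold 0.95 ± 0.21), and lost it without sgScr replicate 1 (edgeR adjusted p = 0.281) or sgArid1a replicate 2 (edgeR adjusted p = 0.0832) and at clustering resolution 1.2 (edgeR adjusted p = 0.0552). In its highest class, the exhausted-like, the S100a4 samples overlapped (1055 and 1122 against 1232 and 1071 CPM), and in memory-like cells both sgArid1a samples lay below both sgScr samples (506 and 483 against 480 and 404 CPM) without passing the test (edgeR adjusted p = 0.584). Interferon-stimulated-like cells had the same order (290 and 480 against 285 and 258 CPM, log2 fold -0.49, edgeR adjusted p = 0.196). So did early-activated-like cells (375 and 307 against 276 and 260 CPM, log2 fold -0.28, edgeR adjusted p = 0.21). The log2 fold of S100a4 was positive in 5 of 9 classes. S100a13 passed in none of 9 classes with edgeR (3 had an unadjusted p under 0.05) or DESeq2.

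Effector-like and interferon-stimulated-like cells had no call among the 7 genes with edgeR (1 gene in each had an unadjusted p under 0.05) or DESeq2, where 0.489 and 0.144% of all genes were called higher. The median log2 fold of the 7 genes was -0.03 and 0.01 in these classes, against 0.32 in exhausted-like and 0.30 in naive/central memory-like cells, where the medians over all genes were -0.02 and -0.01.

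**Figure D3:**
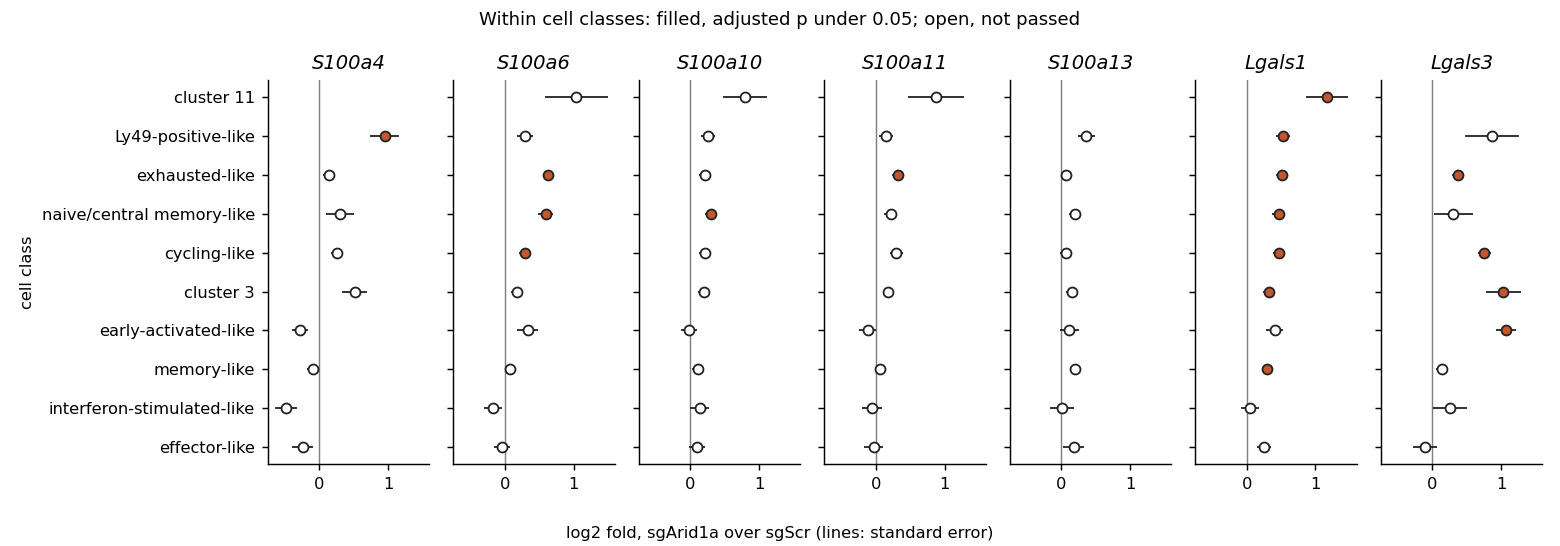
Log2 fold of sgArid1a over sgScr for each gene (panels, x axis) in each cell class (rows), with standard errors as lines; filled points have an adjusted p under 0.05. Lgals1 is filled in 7 of 10 classes, Lgals3 in 4 and S100a6 in 3, and no point left of 0 is filled.

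The naive/central memory-like class joined 3 clusters. Its sgScr cells lay mostly in clusters 0 and 1, those of sgArid1a replicate 1 in clusters 1 and 5, and those of sgArid1a replicate 2 in clusters 1 and 0. Tested one cluster at a time, a step chosen after seeing the data, cluster 0 had calls of S100a10 (log2 fold 0.42) and Lgals1 (0.42), cluster 1 of Lgals1 (0.69) and S100a6 (0.83), and cluster 5 of S100a6 (1.97, from 7.4 and 12.4 CPM to 47.2 and 21.0 CPM). The S100a6 value in cluster 5 rests on 6 and 7 UMIs in sgScr. None of the 7 genes was called lower in any of the 3 clusters, with S100a4 and Lgals3 not tested in cluster 5.

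The group effect itself was then compared between the classes with most cells, memory-like and naive/central memory-like. It was smaller in memory-like cells for S100a6 (log2 difference of -0.53 ± 0.09, edgeR adjusted p = 4.32e-05) and S100a10 (-0.19 ± 0.04, edgeR adjusted p = 0.000417), where 0.956% of all genes were called in that direction. The difference was negative for all 7 genes and not called for the other 5. The call of S100a6 was lost without sgArid1a replicate 1 (adjusted p = 0.465) or sgArid1a replicate 2 (adjusted p = 0.217), and that of S100a10 without any of the 4 samples (adjusted p from 0.0754 to 0.353). At clustering resolution 1.2 neither passed (adjusted p = 0.0649 and 0.141), while S100a4 did (adjusted p = 0.0272).

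When each sample was given the same mix of clusters, the log2 ratio of the groups fell from a median of 0.80 to 0.14 over the 7 genes. The ratio of Lgals1 went from 1.19 to 0.36, the largest left among the 7, at 912 and 891 CPM in sgScr and 1193 and 1114 CPM in sgArid1a at the common mix. As a share of the ratio over all T cells, 33.0% was left for S100a13 and 29.8% for Lgals1. Lgals3 went from 0.92 to 0.24, S100a6 from 0.83 to 0.17, S100a11 from 0.72 to 0.13, S100a10 from 0.52 to 0.14 and S100a13 from 0.36 to 0.12. The groups still did not overlap for these 6 genes, and the share of all genes without overlap at this mix was not computed. S100a4 went from 0.80 to -0.02, with overlapping groups at 271 and 273 CPM in sgScr and 288 and 247 CPM in sgArid1a. Clusters were built from genes that themselves differ between the groups, so a common mix can lower such ratios by construction. No test was made.

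**Figure D4:**
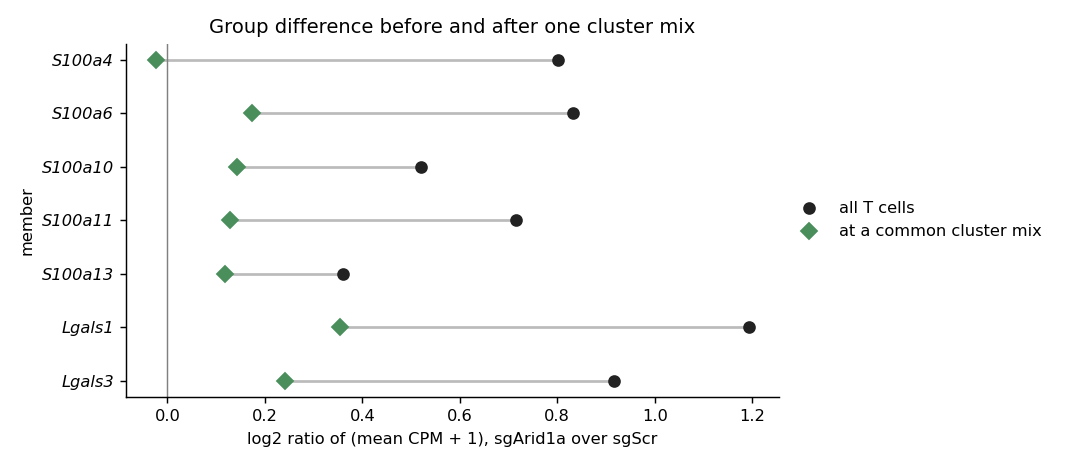
Log2 ratio of (mean CPM + 1) of sgArid1a over sgScr for each gene over all T cells (circles) and with every sample weighted to the same cluster mix (diamonds). All 7 ratios shrink, Lgals1 from 1.19 to 0.36 and S100a4 from 0.80 to -0.02.

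The receptor a T cell carries gave a further division that expression states did not define. Each T cell was assigned the Trbv segment, the variable part of the receptor beta chain, that led in UMIs, given 2 or more. Cells with the same segment can belong to 1 clone or to many, and clonotypes were not analysed here. Trbv13-1 was found in 458 and 437 sgScr cells and 1031 and 1350 sgArid1a cells, and Trbv20 in 160 and 138 sgScr cells and 609 and 790 sgArid1a cells.

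Trbv20 cells were low in the 7 genes in sgScr and high in sgArid1a, compared with the other cells of the same sample. S100a4 stood at 97.3 and 142 CPM in Trbv20 cells and 307 and 325 CPM in other cells of the sgScr samples, and at 911 and 797 CPM against 491 and 424 CPM in sgArid1a. Lgals1 stood at 432 and 546 CPM against 1142 and 1156 CPM in sgScr, and at 4082 and 3910 CPM against 2336 and 2171 CPM in sgArid1a. Both genes were lower in Trbv20 cells of each sgScr sample and higher in those of each sgArid1a sample, and so were the other 5. S100a6 went from 349 and 405 CPM against 545 and 541 CPM in sgScr to 1537 and 1548 CPM against 781 and 793 CPM in sgArid1a. Lgals3 went from 54.4 and 35.5 CPM against 70.2 and 79.8 CPM to 224 and 241 CPM against 117 and 123 CPM.

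Over both groups together none of the 7 genes was called for Trbv20 with edgeR (0.0172% of all genes were called higher, none of the 7 had an unadjusted p under 0.05, and DESeq2 called none of them). The difference of the Trbv20 effect between the groups, a test added after seeing these values, was called for all 7, where 11.6% of all genes were called in that direction. The log2 difference was 2.25 ± 0.11 for S100a4, 2.0 ± 0.08 for Lgals1, 1.60 ± 0.17 for Lgals3, 1.43 ± 0.09 for S100a6, 1.08 ± 0.09 for S100a11, 0.77 ± 0.08 for S100a10 and 0.40 ± 0.12 for S100a13 (SE; largest edgeR adjusted p = 0.00525). The call of S100a13 was lost without sgScr replicate 1, sgScr replicate 2 or sgArid1a replicate 2 (edgeR adjusted p = 0.0699, 0.203 and 0.119). The 8 sums came from only 4 samples, with a spread borrowed from all genes.

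The cell state of Trbv20 cells moved with these values. In sgScr 62.5 and 57.2% of them were naive/central memory-like (48.6 and 47.8% of other cells) and 1.88 and 1.45% exhausted-like (6.34 and 6.92% of other cells). In sgArid1a 5.09 and 5.82% were naive/central memory-like (19.1 and 18.5% of other cells) and 43.7 and 42.3% exhausted-like (10.1 and 9.69% of other cells). Their median UMI count was 4043 and 3846 against 3997 and 3865 in other cells in sgScr, and 5578 and 9248 against 2620 and 4170 in sgArid1a. The part of state and depth in the difference was not tested.

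Trbv13-1 cells were higher in S100a4 and Lgals1 in every sample. S100a4 stood at 430 and 437 CPM against 291 and 311 CPM in other cells in sgScr, and at 773 and 691 CPM against 484 and 411 CPM in sgArid1a (log2 difference 0.61 ± 0.06, edgeR adjusted p = 0.00459), where 1.41% of all genes were called higher. Lgals1 stood at 1439 and 1346 CPM against 1099 and 1124 CPM in sgScr, and at 3808 and 3555 CPM against 2219 and 2070 CPM in sgArid1a (0.54 ± 0.09, edgeR adjusted p = 0.035). The call of S100a4 held in all 8 alternatives, and that of Lgals1 was lost without sgScr replicate 1, sgArid1a replicate 1 or sgArid1a replicate 2 (edgeR adjusted p = 0.0529, 0.171 and 0.124). S100a10, S100a11, S100a13 and Lgals3 were also higher in Trbv13-1 cells of all 4 samples without passing the edgeR test, and S100a6 was higher in 2 of 4 (log2 difference -0.05 ± 0.06). DESeq2 called 4 of the 7 genes for Trbv13-1 and none of them lower, where edgeR called 2.

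The Trbv13-1 effect was larger in sgArid1a than in sgScr for Lgals1 (log2 difference of the effects 0.43 ± 0.03), S100a11 (0.40 ± 0.04), S100a10 (0.21 ± 0.04) and S100a4 (0.17 ± 0.04; largest edgeR adjusted p = 0.00405), where 9.85% of all genes were called in that direction. The call of S100a4 was lost without sgArid1a replicate 2 (edgeR adjusted p = 0.189). S100a6 differed by 0.00 ± 0.05 and Lgals3 by 0.01 ± 0.09, and both changed sign across the 5 alternatives, S100a6 being called without sgScr replicate 1 (edgeR adjusted p = 0.0348). Exhausted-like cells made up 10.3 and 8.24% of Trbv13-1 cells in sgScr and 32.1 and 31.3% in sgArid1a.

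**Figure D5:**
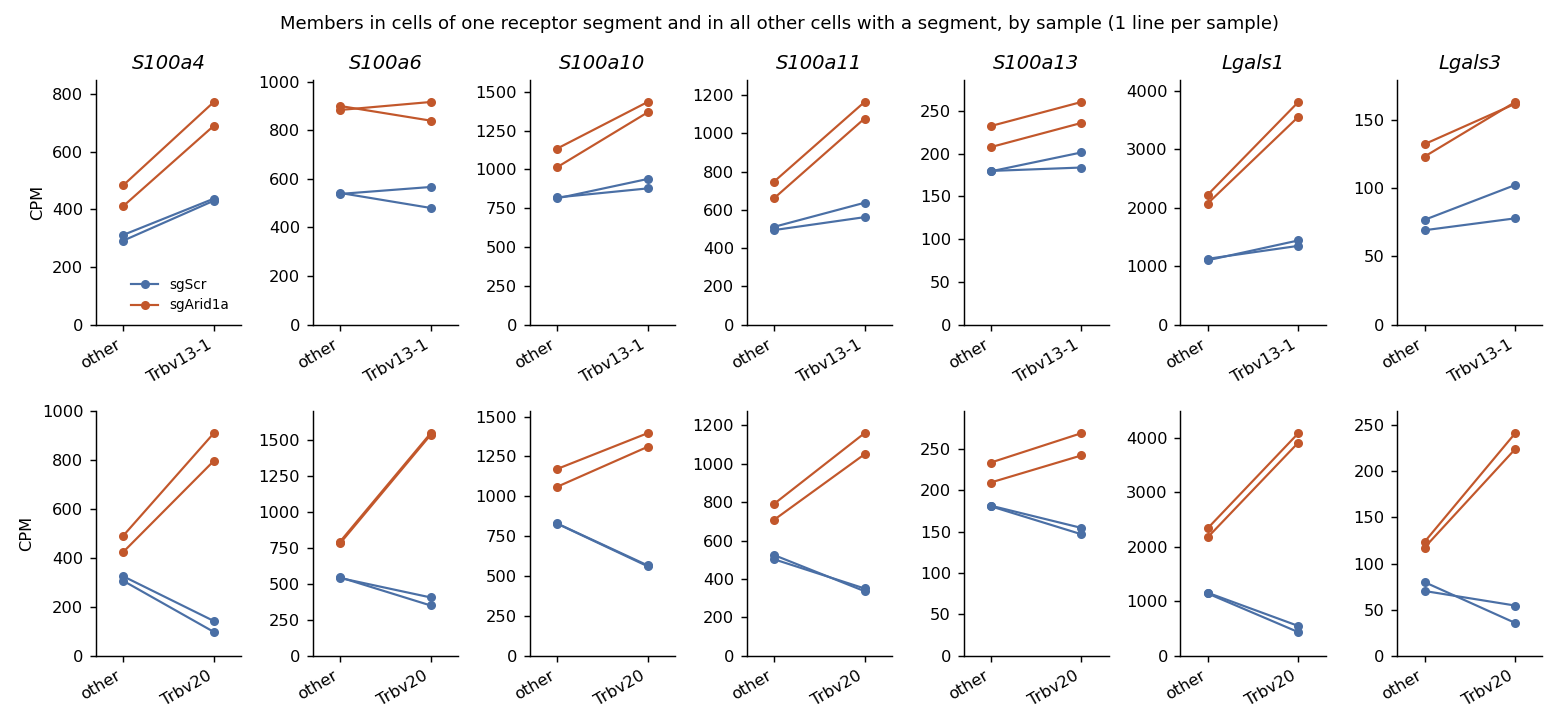
Level (CPM, y axis from 0) of each gene (columns) in cells of Trbv13-1 (top row) or Trbv20 (bottom row) and in all other cells with a segment, with 1 line per sample. In the Trbv20 row the sgScr lines fall and the sgArid1a lines rise for all 7 genes, and in the Trbv13-1 row S100a4 and Lgals1 rise in every sample while S100a6 stays near level.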

How the data were processed

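Single-cell 5′ RNA-seq (10x) of 4 samples was analysed from the deposited matrices, whose raw UMI counts per gene and cell the authors made with Cell Ranger (version 6.0.1 per the file headers, 3.0.2 per the submitters' processing notes, which also name Seurat and mm10). Which gene annotation was used is not given in the sources used. The 7 genes, the related lists and the marker lists were chosen with earlier results of these data known.

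Cells needed 500 genes or more and no more than 10% of UMIs from mitochondrial genes. They were clustered with scanpy 1.11.5 (2000 variable genes, 30 components, 15 neighbours, Leiden resolution 0.8). The 7 genes, the other S100 and galectin genes, the annexins and Ahnak were left out of the variable genes. A cluster of 57 B cell-like and MHC class II-positive cells was left out. Doublets were not removed, and 6.73 to 13.2% of T cells per sample had 2 or more Trbv segments. UMIs were summed per sample and class (50 cells or more in each sample). The test was that of edgeR 4.0.16 (quasi-likelihood, TMM, Benjamini-Hochberg over all genes, threshold 0.05). DESeq2 1.42.0 was an alternative. On simulated counts over 12792 genes, 48.7, 80.1 and 91.4% of changes of 1.3, 1.5 and 2-fold were recovered. Only 199, 196 and 197 tested genes were changed in these runs. In the data 54.4% of genes were called, so the recovered shares need not hold there. Intervals and tests cover these samples only.

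Besides the 7 genes and Arid1a, the text names, per related list, the 3 genes of smallest p with a mean of at least 20 CPM, every called S100 or galectin gene, the 3 genes most alike to each of the 7, and each marker list's highest gene. Lgals9 follows from the same rule. Positions are from GRCm38 and promoters from RefSeq.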

Additional observations from a re-analysis of the deposited data

Results flagged for a closer look

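The group effect differed between cell classes for 2 genes by a test of the difference itself. It was smaller in memory-like than in naive/central memory-like cells by -0.53 (log2) for S100a6 and by -0.19 for S100a10. The S100a6 call was lost without either sgArid1a sample, the S100a10 call without any 1 of the 4 samples, and both at clustering resolution 1.2.

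The effect of the receptor segment differed between sgArid1a and sgScr by a segment by group term. For Trbv20 the log2 difference was 2.25 for S100a4, 1.43 for S100a6, 0.77 for S100a10, 1.08 for S100a11, 0.40 for S100a13, 2.0 for Lgals1 and 1.60 for Lgals3. For Trbv13-1 it was 0.17 for S100a4, 0.21 for S100a10, 0.40 for S100a11 and 0.43 for Lgals1. The Trbv20 call of S100a13 was lost in 3 of 5 alternatives and the Trbv13-1 call of S100a4 in 1 of 5. This term was chosen after seeing the data.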

How the results depend on the processing

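All 7 genes stayed called over all T cells in the 17 alternatives run, and 36 to 61 related genes were called when 1 sample was left out (53 with all). Calls within classes ranged from 10 to 32 pairs when 1 sample was left out (17 with all). Calls for a difference between memory-like and naive/central memory-like cells ranged from 0 to 1 when 1 sample was left out and were 1 at clustering resolution 1.2, where the gene called was S100a4 and not S100a6 or S100a10 (2 with all samples at resolution 0.8). Calls by receptor segment ranged from 1 to 3 when 1 sample was left out, with 4 by DESeq2 and 11 with the segment by group interaction term (2 otherwise). The median difference in the share of cells with a UMI was 16.6 points with cells thinned to 2500 UMIs, against 12.3 points at 1500. Thinning to 2500 kept 6386 of 7636 and 5762 of 7157 sgScr cells, and 5105 of 10695 and 10468 of 12771 sgArid1a cells. The median log2 ratio at a common mix ran from 0.07 to 0.20. The causes of these changes were not tested. The 53 related genes called with all samples were of 84 tested, where 54.4% of all genes were called in either direction. Same-numbered samples did not deviate together (r = -0.04 over 12792 genes). With 2 samples a group this r cannot decide whether same-numbered samples were prepared together, which the labels do not say. With the replicate block 7 genes, 54 related genes and 23 pairs were called, and the call of Lgals1 in cluster 11 was not made (edgeR adjusted p = 0.0538). No called value changed direction in the alternatives run. The uncalled Trbv13-1 by group differences of S100a6 (-0.07 to 0.14) and Lgals3 (-0.10 to 0.18) changed sign. With 2 samples a group, and a median of 2407 UMIs per cell in sgArid1a replicate 1, small differences and low genes are not resolved.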

Other observations

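The 57 cells left out as B cell-like or MHC class II-positive held Lgals3 at 533 CPM, against a mean of 101 CPM over the T cell samples, and S100a4 at 409 CPM against 390 CPM.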
